A study of Mus musculus with 6 samples.

Results

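Cerebellar RNA of Atxn2 knockout mice was set against that of wild-type mice, with 1 library per genotype, chosen as the 2 cerebellum libraries among the 6 of the series. Both groups were C57BL/6 mice at 6 months of age, homozygous for the knockout (Atxn2-/-, labelled Atxn2-KO) or for the wild-type allele (Atxn2+/+, labelled WT), and each library was a pool of 3 animals. The other 4 libraries are hippocampus and liver of the same genotypes, and the series was designed to find changes shared by tissues. The sample labels were followed for tissue and age, although the protocol text speaks of midbrain, not hippocampus, and gives ages in weeks. The sources used here do not say which part of Atxn2 was removed, what sex the animals had or when they were dissected.

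The ataxin-2 protein binds RNA, poly(A)-binding protein and translating ribosomes. A repeat expansion in its human gene causes spinocerebellar ataxia, in which Purkinje cells, the output neurons of the cerebellar cortex, are lost. Purkinje cells receive their main input from cerebellar granule neurons, the most numerous neurons of the brain, and fire at high rates that depend on calcium stores and fast ion channels.

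Each library was made by massive analysis of cDNA ends (MACE), which reads 1 tag per transcript close to its 3′ end, so levels can be compared between genes without a length. Sense tags on gene records numbered 2284820 in the knockout and 2360459 in the wild-type pool, 61.9% of all tags in each. They fell on 21170 features, which are gene symbols or joint sets of genes whose tags could not be separated (3715 features). Of these, 9576 had a mean level of at least 10 CPM and are called measured below. CPM here is tags per 1000000 gene tags after TMM scaling, a log2 ratio is knockout over wild type, and its interval is an exact 95% counting interval (Clopper-Pearson). With 1 pool per genotype there is no replicate check and no test. The intervals cover counting error only, not the spread between animals. In whole tissue, fewer cells of a type and less RNA per cell cannot be told apart.

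Atxn2 had 0 knockout and 167 wild-type tags, 53.6-fold lower when the knockout is set to a floor of 3 tags (log2 -5.74). The upper limit of its interval was -5.43. The genotypes also differed in a marker of sex. Xist, the RNA that silences an X chromosome in females, had 0 and 34 tags in knockout and wild type. The Y-linked genes Ddx3y (176 and 176 tags), Eif2s3y (91 and 63), Kdm5d (12 and 10) and Uty (9 and 14) were present in both pools, and their sum was 1.14-fold as high in the knockout (interval 0.959 to 1.35). Genotype and the sex of the pooled animals cannot be told apart for any value below.

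Transcripts at least 20 times higher in the liver libraries than in cerebellum were counted apart. The set was defined from levels averaged over both genotypes. Of 162 such measured features, 108 had a ratio below 0, their median was -0.18, and 30.9% were lower and 3.7% higher with an interval that excluded equality. With a size limit of 0.5 in addition, the shares were 27.8% lower and 1.85% higher. The lowest were Serpinc1, which encodes antithrombin (10 and 37 tags, log2 -1.83), the apolipoprotein gene Apoc4 (11 and 39, -1.77), Bhmt, a methyltransferase gene of methionine metabolism (28 and 99, -1.77), and the protease inhibitor genes Serpina1a (25 and 80, -1.62) and Serpina3k (26 and 75, -1.47). Alb, the albumin gene, had 578 and 1008 tags. In the list of hepatocyte genes 34 of 35 measured members were below 0, with a median of -0.85, and of the acute phase genes 14 of 15 (median -0.74). These lists share members, among them Serpina1a, Serpina1b, Serpina3k, Fga, Fgg, Hpx and C3, so their counts are not separate results. The highest liver-rich features with an interval above 0 were Lsr (41 and 19 tags, log2 1.16), the gap junction gene Gjb2 (42 and 25, 0.80), Ifitm3 (134 and 87, 0.68), Trf, the transferrin gene that oligodendrocytes also express (678 and 559, 0.33), and the ribosomal RNA feature Rs5-8s1 (813 and 697, 0.28). The source of these transcripts was not tested.

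Outside that set, cerebellar transcripts differed little between the pools. The median ratio of the 9414 remaining features was 0.00, and 91.7% of the ratios lay within 0.5 of equality. The interval excluded equality for 679 higher features (7.21%) and 632 lower ones (6.71%), or 13.9% in all, where counting error alone would leave out at most 5%. A mid-size difference, defined as a log2 ratio of at least 0.5 in size with an interval that excludes equality, was found for 225 higher features (2.39%) and 217 lower ones (2.31%). The higher ones made up 50.9% of these with TMM and 40.5% with DESeq2 size factors (185 higher and 272 lower). Differences of at least 2-fold were found for 34 higher (0.361%) and 24 lower features (0.255%). Counts of list members below are to be read against these shares.

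**Figure D1:**
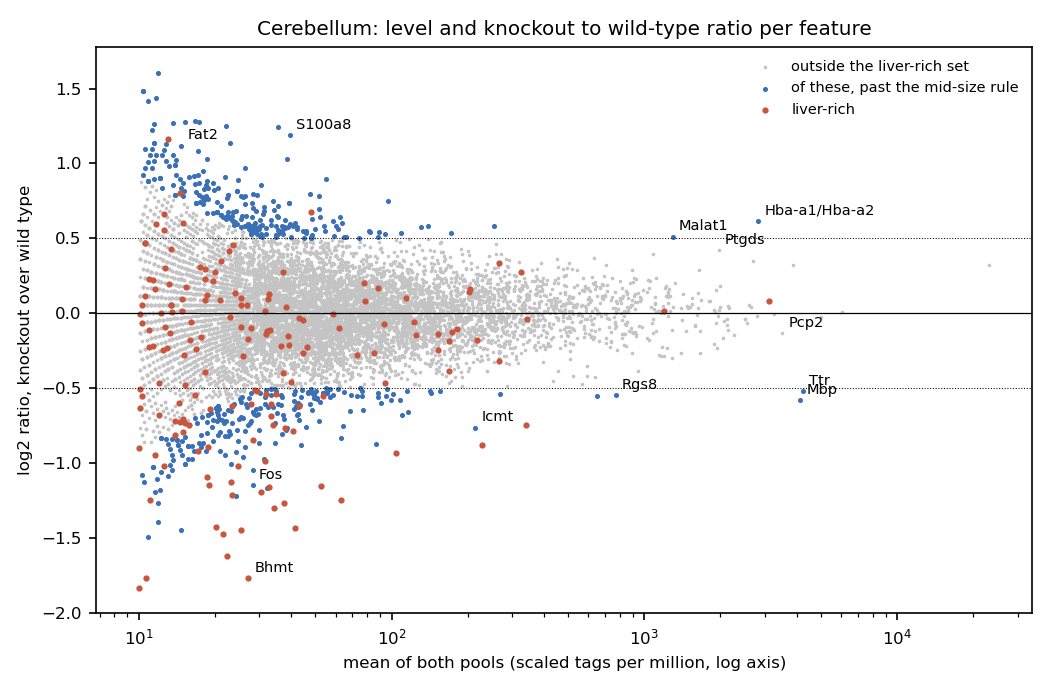
Each point is 1 measured feature, with its mean level in the 2 cerebellum pools on a log axis (CPM) and its log2 ratio of knockout over wild type. Dotted lines mark a ratio of 0.5 in either direction. Blue points passed the mid-size rule, red points are liver-rich, and Atxn2, with 0 knockout tags, is not drawn. Few features above 100 CPM lie outside the dotted lines, among them Mbp, Ttr and Rgs8 below and Malat1 and Hba-a1/Hba-a2 above.

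Purkinje cell markers were lower as a group in the knockout, by a modest amount. The members of this and the other lists were chosen with earlier results of these data known. Their counts and medians describe the lists and are no independent evidence. Of 42 measured members 31 had a ratio below 0 and 11 above, with a median of -0.14 against 0.00 for all features. The interval lay below 0 for 17 members and above 0 for 1, and 5 members passed the mid-size rule as lower and 0 as higher. Summed over the list there were 45899 knockout and 53065 wild-type tags (log2 -0.15, interval -0.17 to -0.14). The list was lower under every scaling tried, with medians from -0.18 to -0.14. In the hippocampus pools the same 42 genes had a median of -0.11, against 0.01 for all features outside the liver-rich set. Members were kept by their cerebellar level, and some had few hippocampal tags, such as Pcp2 (27 and 74) and Plcb4 (16 and 16). Whether the lower median was particular to cerebellum was not tested.

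The members that passed the mid-size rule did not include the most abundant ones. Doc2b, a calcium sensor of vesicle release, had 61 knockout and 111 wild-type tags (log2 -0.81, interval -1.28 to -0.35). It was also lower in hippocampus, with 106 and 136 tags (-0.47, -0.85 to -0.10). Icmt, the methyltransferase that finishes prenylated proteins, had 362 and 639 tags (log2 -0.76, -0.95 to -0.58). Outside the liver-rich set it had the lowest ratio of all features at 100 CPM or more, while its hippocampal counts were 86 and 87. Inpp5a, the phosphatase that removes inositol trisphosphate, had 1204 and 1837 tags (log2 -0.55, -0.66 to -0.45), against 133 and 102 in hippocampus. Rgs8, a regulator of G protein signalling enriched in Purkinje cells, had 1427 and 2169 tags (log2 -0.55, -0.65 to -0.45). Its hippocampal counts were 205 and 231, a smaller difference in the same direction (-0.29, -0.56 to -0.01). Fam70a, a membrane protein gene, had 95 and 149 tags (log2 -0.59), against 57 and 53 in hippocampus (-0.01).

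A second tier was lower by less. The synaptic scaffold gene Homer3 (1082 and 1558 tags) was at -0.47, Spnb3, the beta-III spectrin gene, at -0.35 (1191 and 1582), and the endocannabinoid synthase gene Dagla at -0.32. Car8, which encodes a binding partner of the inositol trisphosphate receptor, was at -0.29 (2466 and 3124 tags), and Itpr1, the receptor itself, at -0.27 (2891 and 3611). The neurofilament gene Nefh (-0.26) and the phosphatase inhibitor gene Ppp1r17 (-0.24) also had intervals below 0. Pcp2, the Purkinje cell protein gene and the most abundant member, had 7636 and 8697 tags (log2 -0.13, -0.18 to -0.09), close to the list's median, as was the calcium buffer gene Calb1 (1776 and 2033, -0.14). Nearer to equality were Pcp4 at -0.06, Slc1a6, the Purkinje glutamate transporter gene, at -0.03, the calcium buffer gene Pvalb (6299 and 6645) at -0.02 and Aldoc at -0.01. Plcb4, the phospholipase that makes inositol trisphosphate, was the highest member and the only one with an interval above 0 (221 and 176 tags, log2 0.38). Aldoc and Pvalb are also expressed by astrocytes and by interneurons, respectively.

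**Figure D2:**
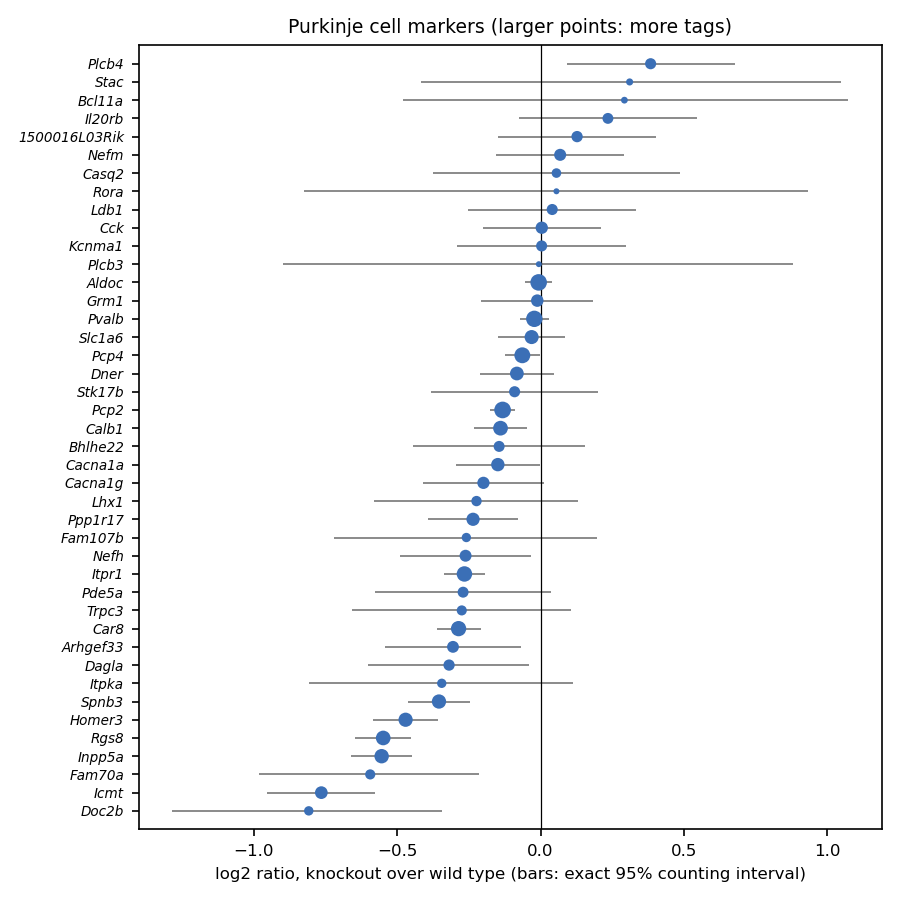
Log2 ratio of knockout over wild type for the 42 measured Purkinje cell markers, ordered by ratio, with exact 95% counting intervals as bars and larger points for more tags. Most points lie left of 0. Doc2b is lowest at -0.81, Plcb4 is highest at 0.38, the large point of Pcp2 lies at -0.13, and those of Pvalb and Aldoc at -0.02 and -0.01.

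Genes of calcium stores, pumps and buffers, several of which are also on the Purkinje list, showed a similar small shift. Of 42 measured members 31 were below 0 (median -0.09), 12 with an interval below and 3 above 0. Orai2 (34 and 58 tags, log2 -0.72), a channel of store-operated calcium entry, passed the mid-size rule as lower. The store calcium sensor gene Stim1 (-0.40) and the store pump gene Atp2a2 (-0.22) had intervals below 0. Atp2b3, a plasma membrane calcium pump gene, passed as higher (149 and 90 tags, log2 0.78, 0.40 to 1.18). Of the sodium and calcium channel genes 14 of 18 were below 0 (median -0.12), 4 with an interval below 0. Fgf14, whose product binds sodium channels, was lowest (32 and 60 tags, log2 -0.85). Scn8a (-0.18) and Cacna1a (-0.15) carry the main sodium and P-type calcium currents of Purkinje cells and also had intervals below 0. Potassium channel genes had 4 intervals below and 0 above 0 among 23 members (median -0.05). Kcnc1, a fast-spiking channel gene and the most abundant, was at -0.09 and Kcnh1, the highest, at 0.32. Fgf14, Spnb3, Itpr1 and Cacna1a are also spinocerebellar ataxia genes. Over the 24 measured genes of that list the median was -0.03, with 6 intervals below and 3 above 0. Atxn7 was highest (52 and 34 tags, log2 0.67).

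Cerebellar granule neuron markers did not share the shift of the Purkinje list. Their median was 0.05 over 31 measured members, and 12 had an interval above and 3 below 0. The direction of so small a median was kept under the scalings tried (0.01 to 0.05). The vesicular glutamate transporter gene Slc17a7, the most abundant member, had 2649 and 2720 tags (log2 0.02), and the granule synapse gene Cbln3 had 1034 and 1036. The members with an interval above 0 included the transcription factor genes Zic4, Zic2, Nfix and Neurod1. Zic4 had 112 and 70 tags (log2 0.73, 0.29 to 1.19), Zic2 198 and 145 (0.50), Nfix 284 and 221 (0.42) and Neurod1 757 and 660 (0.25). Barhl1, a granule lineage transcription factor gene, was the lowest member at 51 and 85 tags (log2 -0.68, -1.21 to -0.16). Fat2, an adhesion gene of granule cells and the highest member, had 46 and 22 tags (log2 1.12, 0.36 to 1.92), and the release-site gene Rims1 had 55 and 36 (0.67). Gabra6, the receptor subunit particular to granule cells, was slightly lower (1808 and 2071 tags, log2 -0.14).

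Interneuron markers were near equality, with a median of -0.05 over 17 members, 3 intervals below and 0 above 0. The neuropeptide gene Npy was lowest (74 and 126 tags, log2 -0.71, -1.15 to -0.29), and the GABA-synthesis genes Gad1 (628 and 722) and Gad2 were at -0.15 and -0.31. Ptprk was highest at 0.67, with an interval that included 0. Unipolar brush cell markers (median -0.05 over 5 members) ran from Eomes at -0.40 to Plcb4 at 0.38. Of 13 genes listed for cerebellar nuclei and brainstem 9 were in the table and 3 were measured. Forebrain markers, listed to look for other brain tissue, had a median of -0.07 over 9 members and no interval that excluded 0.

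Myelin genes had a median near equality, with members on both sides of it. The median was -0.02 over 35 measured members, and 5 intervals lay above and 4 below 0. Mbp, the myelin basic protein gene and 1 of the most abundant transcripts, had 7571 knockout and 11760 wild-type tags (log2 -0.58, -0.62 to -0.54). Nearly all of its tags fell on a row shared by several transcript variants (7250 and 11359 tags, -0.59). A row of variant NM_001025254.2 was at -0.46 (226 and 324), while one of variant NM_001025245.1 had 90 and 68 tags (0.46, -0.01 to 0.94). Bcas1, a gene of early myelinating oligodendrocytes, had 291 and 434 tags (log2 -0.52). The hippocampal ratios of these genes were -0.42 and -0.75. Without Mbp the summed list gave 12537 and 13073 tags, a log2 ratio of -0.01 (-0.04 to 0.03), against -0.25 with it. Cnp was at -0.16, and Mal (0.39), Olig1 (0.45) and Cryab (0.31) were higher. Apod, a lipid carrier gene, was highest (37 and 16 tags, log2 1.26). Oligodendrocyte precursor genes, with 4 measured, had no interval that excluded 0.

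Astrocyte and Bergmann glia markers had 7 intervals above and 8 below 0 among 36 members (median -0.02), or 4 above and 11 below with DESeq2 size factors. Fabp7, the radial glial fatty acid binding protein gene, passed the mid-size rule as higher (82 and 49 tags, log2 0.80, 0.27 to 1.34). The receptor gene Fgfr3 (182 and 246, -0.38) and the water channel gene Aqp4 (-0.33) were lower. Microglia genes had a median of -0.07 over 16 members, with 3 intervals below and 0 above 0. Trem2, a lipid receptor gene of microglia, had 29 and 53 tags (log2 -0.81, -1.52 to -0.14), Csf1r, their survival receptor gene, 108 and 159 (-0.50) and Cst3, the cystatin C gene that other cells also express, 1747 and 2106 (-0.21). Tmem119, a microglial identity gene, was highest (37 and 29, log2 0.41) with an interval that included 0.

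Tissues at the edge of the cerebellum differed in opposite directions. Choroid plexus genes were lower in the knockout. Of 13 measured members 10 were below 0 (median -0.25, or -0.03 over the 4 members at 30 CPM or more), and Sostdc1 (17 and 40 tags, log2 -1.18), the anti-ageing hormone gene Kl (35 and 73, -1.01), the folate receptor gene Folr1 (42 and 81, -0.89) and Ttr, the transthyretin gene (7929 and 11823, -0.52), passed the mid-size rule. The 9 members under 10 CPM summed to 75 and 149 tags (log2 -0.94, -1.36 to -0.53). Ttr supplied most of the tags, and without it the other 12 measured members summed to 1847 and 2052 (-0.10, -0.19 to -0.01). Igf2 was the highest member (286 and 214, log2 0.47), and it is shared with the meninges. Meningeal and fibroblast genes were higher. Of 20 members 15 were above 0 (median 0.20), 4 with an interval above and 0 below. Ptgds, the prostaglandin D synthase gene, had 5140 and 3987 tags (log2 0.42, 0.36 to 0.48), the joint lubricant gene Prg4 57 and 29 (1.03) and the matrix gene Fbln1 43 and 22 (1.02). Without Ptgds the list summed to 1506 and 1393 tags (0.17, 0.06 to 0.27). Spp1 was lowest (56 and 78, -0.42) with an interval that included 0. Among ependymal genes Ccdc153 (33 and 16, log2 1.10) and Mia1 (54 and 29, 0.95) passed as higher and Pltp (582 and 737) was at -0.29, while Foxj1, the ciliary master regulator gene, was at -0.40 with an interval that included 0. The part of dissection in these differences was not tested.

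Blood genes were higher in the knockout. Of 13 measured red blood cell genes 11 were above 0 (median 0.22), 6 with an interval above and 0 below. The joint alpha-globin feature Hba-a1/Hba-a2 had 7766 and 5266 tags (log2 0.62, 0.56 to 0.67), Hba-a1 alone 696 and 482 (0.59), and Hba-a2 alone 686 and 517 (0.46). The beta-globin feature Beta-s had 6891 and 5636 tags (0.35). Summed, alpha-globin tags were 1.52-fold and beta-globin tags 1.25-fold as high as in wild type. Fech, a heme synthesis gene of many tissues, was lowest at -0.25 with an interval that included 0. The calprotectin genes of neutrophils S100a8 (125 and 57 tags, log2 1.19, 0.73 to 1.67) and S100a9 (56 and 24, 1.28) were higher. The most abundant leukocyte gene, Coro1a, an actin-binding gene of immune cells, was at -0.14 (247 and 282 tags) and Lcn2 at -0.68 (21 and 35), both with an interval that included 0, and the neutrophil granule gene Ngp had only 13 and 11 tags. The share of blood in each pool was not measured otherwise, and its part in other results was not tested. Endothelial genes had 2 intervals above and 1 below 0 among 20 members (median 0.10), with Ifitm3 at 0.68, Pglyrp1, a peptidoglycan recognition gene, lowest at -1.05 (20 and 43 tags), and the abundant Bsg at -0.04. Pericyte and smooth muscle genes had no interval that excluded 0 among 8.

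**Figure D3:**
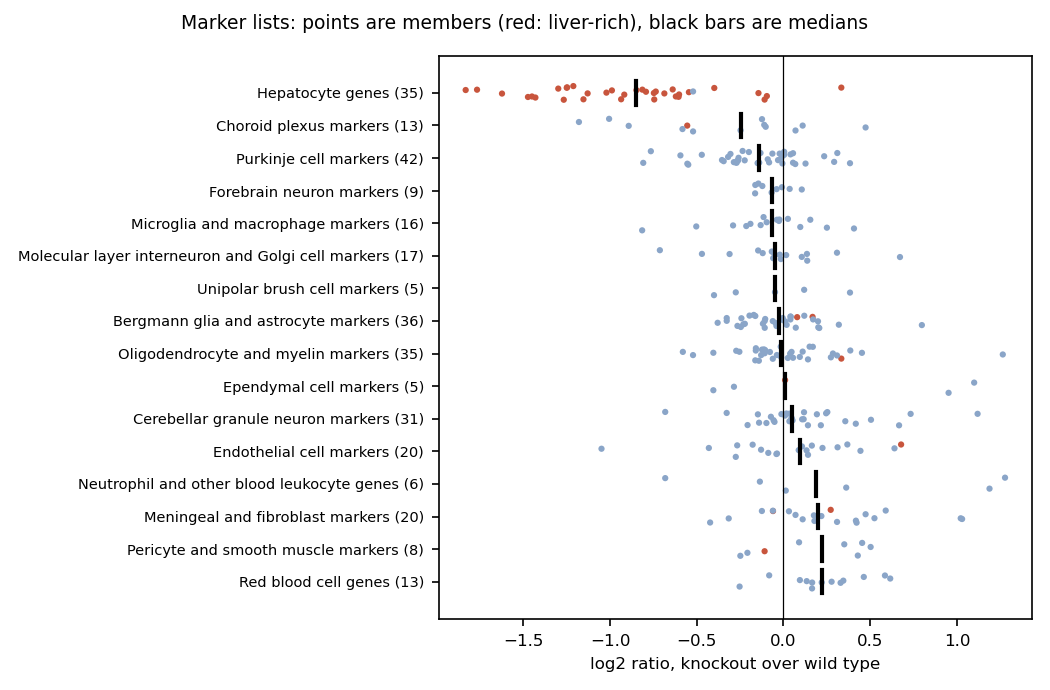
Log2 ratios of the measured members of each marker list with at least 5 of them (number in parentheses), ordered by median. Points are members, red where liver-rich, and black bars are list medians. Hepatocyte genes lie lowest at -0.85, choroid plexus and Purkinje markers are the next lowest at -0.25 and -0.14, and red blood cell genes are at 0.22.

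Transcripts of the cytosolic ribosome were slightly but evenly higher. Ribosomal subunits stand in the series title, which makes their direction here no independent evidence. All 34 measured small-subunit members had a ratio above 0 with TMM and 32 with DESeq2 size factors, with a median of 0.17, or 0.14 with DESeq2 size factors. The interval lay above 0 for 24 and below 0 for none. In the large subunit 43 of 49 were above 0 (median 0.13), 27 with an interval above and 2 below. No small-subunit member passed the mid-size rule, and in the large subunit Rpl23 did (129 and 94 tags, log2 0.51).

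Among small-subunit genes, Rps28 (0.34), Rps19 (0.32) and Rps26 (0.31) were the highest with an interval above 0. Rps15a had the largest ratio (59 and 41 tags, log2 0.58), with an interval of -0.02 to 1.19. Fau, the most abundant member, had 4316 and 4416 tags (0.02) and Rps6, a target of growth signalling, 60 and 62 (0.01). In the large subunit, Rpl19 (0.40) and the stalk gene Rplp2 (0.36) were also high, and Rpl22 was lowest (89 and 118, -0.35). Rpl28 (-0.14) and Rpl18 (-0.09) had intervals below 0. Most tags of 6 small-subunit and 10 large-subunit genes, among them Rplp2, Rpl28 and Rpl35a, lay in rows shared with near-identical copies, so their ratios are uncertain. The other 28 small-subunit genes were all above 0 with TMM (median 0.17), and of the other 39 large-subunit genes 35 were (0.12).

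**Figure D4:**
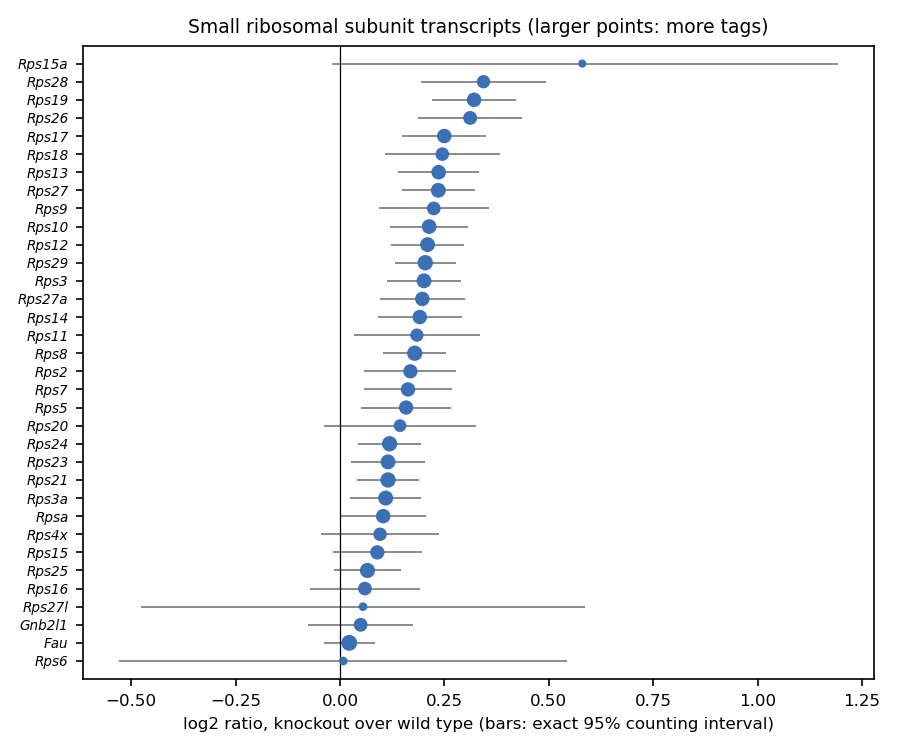
Log2 ratio of knockout over wild type for the 34 small ribosomal subunit transcripts, ordered by ratio, with exact 95% counting intervals as bars and larger points for more tags. With TMM scaling, drawn here, all points lie at or right of 0 (32 of 34 with DESeq2 size factors), most between 0.1 and 0.3, and the wide intervals of Rps15a, Rps27l and Rps6 belong to members with few tags.

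Ribosomal messages are known for a run of pyrimidines at the very 5′ end, the TOP element, through which their translation is controlled together. For some of the members that hold such a run near the annotated start, 30 bases around it are shown. Capitals mark CTTTTC or CTCTTTC, searched on the transcribed strand from 20 bases before to 30 bases after each start (RefSeq, GRCm38.p6), and the 2 strings may overlap at their ends. Counted from the annotated start as base 1, the capitals begin at base 1 in Rpl35a and Rpl28, at 5 in Fau, 6 in Rps26 and 10 in Rps12, and at -13 in Rps15a, which is upstream of that start. A match is therefore not shown to be a TOP element.
Rps15a (chr7:118116142-118116171, minus strand): cccggcccactCTCTTTCtgccatcttccc
Rps26 (chr10:128626483-128626512, minus strand): gccgccggatcCTCTTTCgagtcttggctc
Rps12 (chr10:23787183-23787212, minus strand): gccaccgccggcCTTTTCccctgccgccgc
Rpl35a (chr16:33056471-33056500, plus strand): ggcttgccttcCTCTTTCcgccatcttggc
Fau (chr19:6057940-6057969, plus strand): cccacttcttcCTCTTTCttgactccatct
Rpl28 (chr7:4792954-4792983, plus strand): ctctcgtgtctCTCTTTCcgtctccggccg
A match was found for 4 of 24 small-subunit genes in the promoter table (16.7%), 10 of 36 large-subunit genes (27.8%), 5 of 38 initiation factor genes (13.2%) and 750 of 27025 genes overall (2.78%). The log2 ratios of the genes shown ran from 0.58 and 0.31 for Rps15a and Rps26, through 0.22 for Rpl35a and 0.21 for Rps12, to 0.02 for Fau and -0.14 for Rpl28. Of the large-subunit genes with a match only Rpl35a and Rpl28 are shown, so this range does not describe all genes with a match.

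Initiation factors were spread more widely. Of 47 measured, 30 were above 0 (median 0.08), 6 with an interval above and 1 below 0. With DESeq2 size factors 2 intervals lay above and 2 below. Eif4e3, a cap-binding relative, passed the mid-size rule (31 and 17 tags, log2 0.92, 0.02 to 1.87). Eif2a was at 0.47, Eif4b at 0.28 and Eif3h, a subunit of eIF3, at 0.25. Eif4g2, which initiates without the cap-binding protein, was at -0.20, the lowest member Eif2b3 at -0.27 and the most abundant, Eif1, at 0.02. Of the elongation factors, Eef1a1 (0.29) and Eef2 (4833 and 4433 tags, 0.18) had intervals above 0, while Eif5a2 was lower (57 and 90, -0.60). Relatives and partners of ataxin-2 in RNA granules had 4 intervals above and 1 below 0 among 35 members (median 0.04). Stau2, an RNA transport gene of dendrites, passed as higher (50 and 31 tags, log2 0.74), and the decay factor gene Patl1 was lowest (36 and 55, -0.56) with an interval that included 0. Splicing ribonucleoprotein genes had 9 intervals above and 0 below 0 among 47 (median 0.07), or 6 and 1 with DESeq2 size factors. Hnrnpu, a nuclear scaffold gene, had 465 and 333 tags (log2 0.54, 0.33 to 0.74), and Ptbp1 was lowest (100 and 120, -0.21).

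Respiratory chain transcripts were slightly higher. Of 42 genes of complexes II to V 33 were above 0 (median 0.08), 15 with an interval above and 1 below, and of 35 complex I genes 25 (0.08), 9 with an interval above and 0 below. With DESeq2 size factors these intervals became 13 and 3, and 4 and 1. Sdhb, a subunit of succinate dehydrogenase, had 725 and 585 tags (0.36) and Ndufa10 373 and 309 (0.33). The abundant cytochrome oxidase gene Cox4i1 had 4946 and 4971 (0.05), Ndufa13 was at 0.05, Sdhd at -0.17 and Ndufs7 at -0.13. None of these genes passed the mid-size rule. Mitochondrial ribosomal genes had a median of 0.03 that turned to -0.01 with DESeq2 size factors. Mrps34 was higher (79 and 42 tags, log2 0.97, 0.41 to 1.54) and Mrpl44 lowest (18 and 32, -0.77) with an interval that included 0.

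Other energy genes held few differences. Suclg2, a citric acid cycle gene, was lower (27 and 60 tags, log2 -1.10, -1.81 to -0.42), with 21 and 39 tags in hippocampus, while the cycle's list had a median of -0.03. The glycolysis list was at 0.02, and -0.02 with DESeq2 size factors. Gapdh, most of whose tags lie in rows shared with copies, had 13841 and 14328, and Pfkfb2, which sets glycolytic flux, was lower (41 and 67, -0.65). Of fatty acid oxidation genes Acadl, the long-chain acyl-CoA dehydrogenase gene, was lower (56 and 106 tags, log2 -0.87, -1.36 to -0.38), and so was the liver-rich Acads (42 and 67, -0.62). The list's median was -0.02, or 0.01 without its 6 liver-rich members.

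Cholesterol synthesis genes were lower as a group, by little per gene. Of 24 measured 18 were below 0 (median -0.19), 4 with an interval below and 0 above. Of these members 3 are liver-rich, and without them 15 of 21 were below 0 (median -0.17). Insig1, the sterol sensor gene that is itself a target of the sterol response, passed the mid-size rule (75 and 120 tags, log2 -0.62, -1.06 to -0.19). Pmvk (145 and 212, -0.49), a mevalonate pathway kinase gene, Fdft1, the squalene synthase gene (168 and 227, -0.38), and Scap, the escort of the sterol-sensing factors (195 and 262, -0.37), had intervals below 0. Hmgcs1, an early enzyme gene of the pathway (92 and 120 tags, -0.33), had an interval that included 0, as did Sc5d, liver-rich and lowest at -0.73, and Lss, highest at 0.64. Cyp46a1, which clears cholesterol from neurons, was lower (128 and 194 tags, log2 -0.54, -0.88 to -0.22), whereas the carrier gene Apoe (7311 and 7191) was at 0.08.

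The sterol regulatory element through which many of these genes are switched on was looked for as TCACNCCAC on both strands in 300 bases from 250 before to 50 after each start. It was found in 1 of 21 promoters of the synthesis list (4.76%), 1 of 12 of the cholesterol export and transport list (8.33%) and 388 of 27025 overall (1.44%). The match in the synthesis list lies in Hmgcs1 and is printed with the motif in capitals (RefSeq, GRCm38.p6).
Hmgcs1 (chr13:119690204-119690233, plus strand): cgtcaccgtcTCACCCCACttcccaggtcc

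Genes of fatty acid and sphingolipid synthesis had a median of -0.11 over 33 members, 4 intervals below and 1 above 0. Without the 3 liver-rich members the median was -0.07 over 30. Me1, which supplies reducing power for lipid synthesis, had 109 and 165 tags (log2 -0.54, -0.91 to -0.19), the desaturase genes Scd1 and Scd2 were at -0.46 and -0.13, Sptlc2, of sphingolipid synthesis, was lowest at -0.59 and Lass2 highest at 0.34, both with intervals that included 0. Of insulin and mTOR signalling genes Pik3ca, the catalytic PI3-kinase gene, was lower (164 and 258 tags, log2 -0.60, -0.89 to -0.31), while the list's median was 0.00.

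Synaptic genes were mixed. GABA and glycine receptor genes had a median of -0.14 over 13 members, 4 intervals below and 1 above 0, and the metabotropic receptor gene Gabbr1 was at -0.18. Glutamate receptor genes had a median of -0.08 over 16. Cnih2, an auxiliary subunit of AMPA receptors, was lower (205 and 337 tags, log2 -0.66, -0.92 to -0.41), while its far more abundant hippocampal transcript had 3295 and 2761 tags. Cacng2, the stargazin gene, was at -0.12. Vesicle and release genes had 9 intervals below and 5 above 0 among 41 (median -0.02), or 12 below and 3 above with DESeq2 size factors (median -0.05), with Snap25 at -0.04 (5647 and 6024 tags). Of cytoskeletal genes, Mtap6 was higher (137 and 82, log2 0.80, 0.39 to 1.21) and the motor gene Kif5a lowest (1151 and 1602, -0.42). Among neuropeptide genes Scg2 was at 0.36 (386 and 313 tags) and the abundant Pcsk1n at 0.02.

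Immediate early genes, which respond to neuronal activity and to handling, had a median of -0.17 over 16 members. Fos had 40 and 92 tags (log2 -1.15, -1.72 to -0.60), against 25 and 23 in hippocampus. Per1, both an early gene and a clock gene, had 121 and 198 (-0.66, -0.99 to -0.32), against a hippocampal ratio of 0.02. Jund was at 0.14 and Ier3 highest at 0.75 with an interval that included 0. Of the clock genes, the output gene Dbp was at -0.38, Cry2 at 0.30, Per2 at 0.53 with an interval that included 0, and Tef at -0.11 (list median -0.09 over 17). The part of the hour of dissection was not tested.

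Immune response genes were higher in part. The interferon and MHC list had a median of 0.16 over 22 members, 5 intervals above and 0 below 0, or 4 and 1 with DESeq2 size factors. Of these members 5 are liver-rich, among them Ifitm3 and B2m, and without them the median was 0.19 over 17. Ifit3 (58 and 34 tags, log2 0.83, 0.19 to 1.48), Xaf1 (73 and 44, 0.79), Ifitm1 (43 and 26, 0.78) and Ifitm3 passed the mid-size rule. The 15 members under 10 CPM summed to 179 and 145 tags (log2 0.36, 0.04 to 0.69). The MHC gene B2m, most abundant, was at -0.18 (464 and 545), and Tapbp lowest at -0.32. With a minimum of 30 CPM only 9 members were left and the median was -0.02.

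Protein quality control showed little. With TMM over the cerebellum pools no proteasome subunit among 37 had an interval that excluded 0 (median 0.00), and with DESeq2 size factors 2 were lower, with Psmb1 at 0.07, Psmc5 at 0.20 and Psmd12 at -0.31. Of unfolded protein response genes (median 0.06 over 25) Hspa5, the main chaperone of the endoplasmic reticulum, was at 0.25, Pdia4 highest at 0.85 with an interval that included 0 and Calr at 0.01. Of the chaperones, Hspb1, a small heat shock protein gene, was lower (137 and 223 tags, log2 -0.65, -0.97 to -0.33), Hspa1b was at -0.86 (18 and 34) with an interval that included 0, and Hsp90ab1 was at 0.23 (2280 and 2025). Autophagy and lysosome genes had a median of 0.01, or -0.02 with DESeq2 size factors, and ran from Npc1 at -0.24 to Atg5 at 0.42. Catalase (Cat, liver-rich) was lower among antioxidant genes (99 and 151 tags, log2 -0.55), Gstm5 was at 0.40 and the metallothionein gene Mt1 at -0.11 (4710 and 5296).

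**Figure D5:**
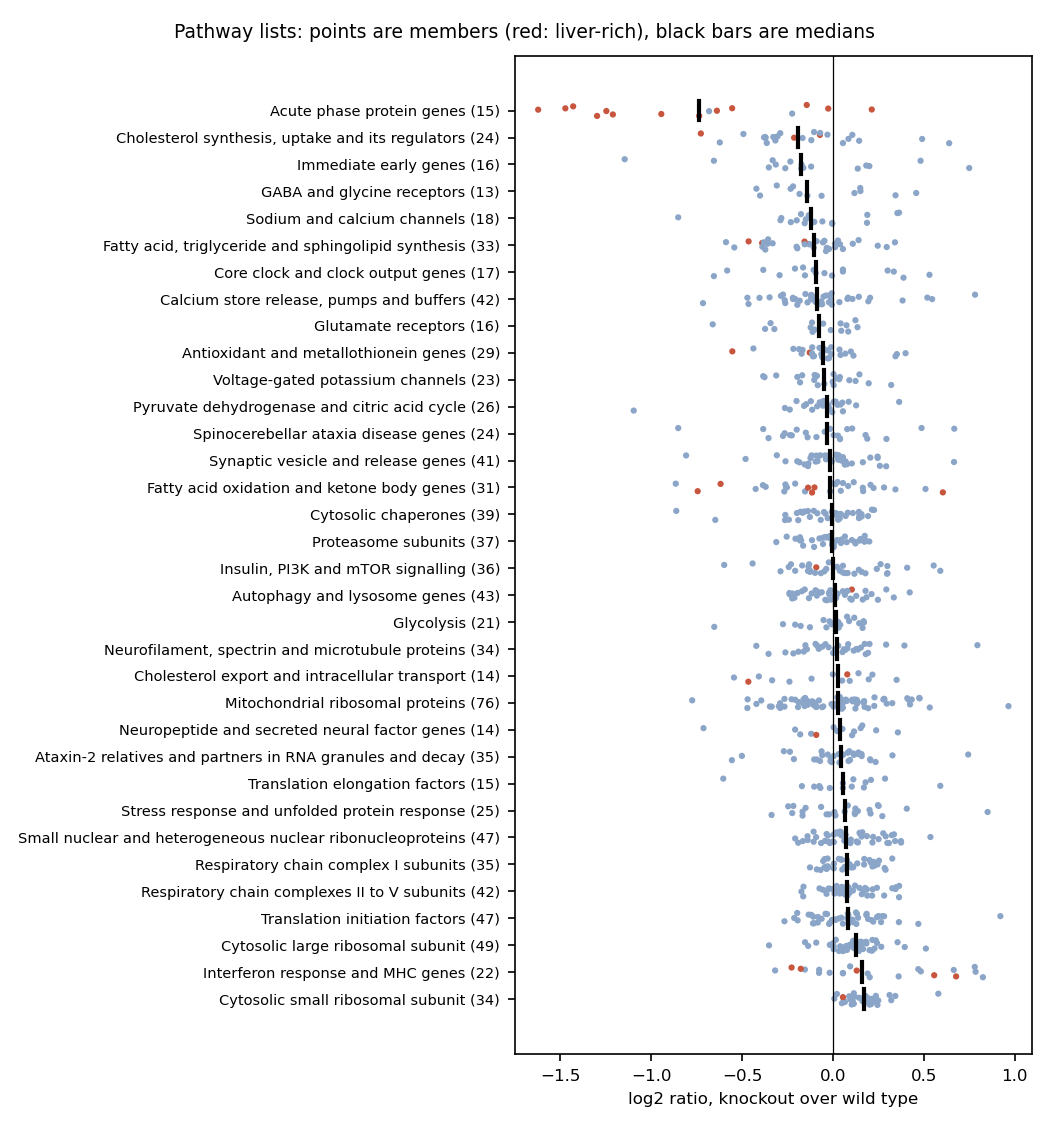
Log2 ratios of the measured members of each pathway list with at least 5 of them (number in parentheses), ordered by median. Points are members, red where liver-rich, and black bars are list medians. Medians other than that of the acute phase genes run from -0.19 for cholesterol synthesis to 0.17 for the small ribosomal subunit, and the points of both ribosomal lists lie closer together than those of most lists.

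The largest ratios outside these lists belonged mostly to transcripts with few tags, for which the interval is wide. Besides Sostdc1, Fos, Suclg2 and Pglyrp1, the lowest were Alpk2 (13 and 38 tags, log2 -1.49), Fam176a (18 and 51), the ceramidase gene Acer3 (15 and 41), Brdt (16 and 40), N4bp3 (33 and 80), Tbl2 (16 and 38), Mdfi, an inhibitor of myogenic factors (45 and 105), the mitochondrial carrier gene Slc25a26 (17 and 38), Nrk (19 and 42), Th, the tyrosine hydroxylase gene that some Purkinje cells express (15 and 33), and Eepd1 (18 and 39, -1.06). The highest were Kin (41 and 14 tags, log2 1.61, 0.70 to 2.60), Spag1 (35 and 13), Zgpat (39 and 15), the junction gene Cgnl1 (36 and 14), the zinc finger gene Zfp266 (114 and 50, 1.24, 0.75 to 1.75), Dnajc24 (36 and 17), the endothelial gene Emcn (36 and 17) and the drug transporter gene Abcc1 (72 and 34, 1.14, 0.53 to 1.77). Bcas2/Mrpl9/Ogdh, A830007P12Rik/Exosc2/Tapbpl, Ankfy1/Casc4/Tmod3 and Bcas2/Tapbpl also ranked there, at 1.16 to 1.29, but are joint features of unrelated genes, so which gene they reflect is uncertain.

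Among features at 100 CPM or more outside the liver-rich set, where counting error is small, the extremes were modest. Below Icmt and Cnih2 came Clmn, a membrane gene (197 and 306 tags, log2 -0.58), Mbp, Inpp5a, Rgs8, Efhd2, a calcium-binding gene (267 and 401, -0.53), Bcas1, Ttr and Mtpn (266 and 396, -0.52). Above were the alpha-globins, the growth-cone gene Gap43 (379 and 263 tags, log2 0.58, 0.35 to 0.81), the tRNA synthetase gene Eprs (357 and 249, 0.57), the coactivator gene Cited2 (295 and 211, 0.54), Hnrnpu, the nuclear noncoding RNA Malat1 (3463 and 2523, 0.51, 0.44 to 0.59), the splicing kinase gene Prpf4b (312 and 230, 0.50), and the chromatin genes Mll1 (373 and 275, 0.49) and Dnmt3a (276 and 204, 0.49).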

How the data were processed

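Polyadenylated RNA was profiled by MACE. The deposited table holds the authors' raw counts of tags per RefSeq record, sense and antisense, without normalization, per the file headers. Base calling used CASAVA 1.8.2 and the build was mm9, per the submitters' processing notes. The aligner, and whether copies of a molecule were removed, are not given in the sources used here. Tags on the mitochondrial genome (11.0% and 10.2% in knockout and wild type), on genomic contigs (18.0% and 17.9%) and without a match (7.39% and 8.28%) name no gene and were left out. Sense counts were summed per symbol. Joint rows of 1 named gene with predicted genes or pseudogenes were counted for the named gene. Libraries were scaled by TMM (edgeR 4.0.16), and DESeq2 1.42.0 gave the alternative size factors. The interval script was tested on simulated data. Library depth limits precision, and a feature at the minimum of 10 CPM rests on few tags. A library at 0 was set to 3 counts. Alternatives were other scalings, minimum levels, row choices and liver-rich definitions.

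The gene lists and members were chosen with earlier results of these data known. Named genes are Atxn2, the sex markers, the 15 highest and 15 lowest ratios, the 10 highest and 10 lowest at 100 CPM or more, the 5 lowest and 5 highest liver-rich features, and from each list the extremes, the most abundant member and every member past the mid-size rule. Other members with an interval that excludes equality are named as examples. Some genes that fall under this rule are left out of the text.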

Additional observations from a re-analysis of the deposited data

Results flagged for a closer look

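These results are listed because the knockout to wild-type ratio pointed in opposite directions in cerebellum and hippocampus. With 1 pool per genotype in each tissue the difference between the tissues was not tested. By list, meningeal and fibroblast genes had medians of 0.20 in cerebellum and -0.16 in hippocampus, neutrophil and other leukocyte genes 0.19 and -0.19, and interferon response and MHC genes 0.16 and -0.18. The leukocyte list had only 6 measured members, which did not move together. S100a9 went with the medians (1.28 and -0.85), and Coro1a, the most abundant, went against them (-0.14 and 0.93). S100a8 was higher (1.19 and 0.75) and Lcn2 lower (-0.68 and -1.85) in both tissues.

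Among single genes with intervals that excluded equality in both tissues, Malat1 was at 0.51 in cerebellum and -0.37 in hippocampus, Ptgds at 0.42 and -0.16, Igf2 at 0.47 and -0.62, Trf at 0.33 and -0.61, Gjb2 at 0.80 and -0.91, Hsp90ab1 at 0.23 and -0.10, and Apoe at 0.08 and -0.11. In the other direction, Cnih2 was at -0.66 in cerebellum and 0.14 in hippocampus, Npy at -0.71 and 0.31, Scap at -0.37 and 0.29, and Cst3 at -0.21 and 0.15.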

How the results depend on the processing

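No paired analysis was possible because each genotype is 1 pool per tissue, and for the same reason no replicate could be left out. Every difference rests on 1 library against 1 library, so sex, blood, choroid plexus, liver transcripts and dissection cannot be told apart from genotype. Depth limits low features: with a minimum of 30 CPM the mid-size rule gave 83 higher and 96 lower and the 2-fold rule 3 and 2 features. With a minimum of 3 the 2-fold rule gave 122 and 60, and with no filter 152 and 75, while the mid-size rule gave 344 higher without a filter. When liver-rich transcripts were not set apart, an alternative chosen after seeing the data, 45 features were lower by the 2-fold rule. At the minimum of 30 the median of the interferon and MHC list was -0.018, of the pericyte list -0.21 (3 members), of the acute phase list -0.22 (3), of the choroid plexus list -0.027 (4) and of the hepatocyte list -0.72 (16). At the minimum of 3 and without a filter the acute phase median was -1.10 and -1.01 and the choroid plexus median -0.52 and -0.57, the ependymal median at the minimum of 3 was 0.45, and that of glutamate receptors without a filter 0.044. With DESeq2 size factors the medians were 0.092 and 0.14 for the large and small ribosomal subunit, 0.045 for complexes II to V, -0.019 for glycolysis, -0.014 for cytoskeletal proteins and -0.050 for vesicle and release genes, and with TMM over 6 libraries 0.11 for the large subunit. With the liver-rich set at 5-fold and left out, the leukocyte median was 0.60 (4 members). The other 546 of 565 list medians moved by less than their own approximate counting error, taken as the median interval half-width of the members scaled to a median of that many. In all 37 medians of 17 lists changed sign, and apart from the interferon and pericyte lists the reported medians of these lists were at most 0.077 in size. Of the gene ratios 1401 of 1405 stayed within their intervals.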

Other observations

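The most abundant feature of both pools was Bc1/Lrrc17, chosen here after its values were seen. Bc1 is a short noncoding RNA of dendrites that represses translation, and the feature is joint with Lrrc17. It had 58761 knockout and 48800 wild-type tags (log2 0.32, interval 0.31 to 0.34), and 78672 and 77451 in hippocampus (-0.09).

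Antisense tags were not part of the comparisons above. Among 474 features with at least 40 antisense tags the median ratio was -0.02, with 21 intervals above and 29 below 0. Antisense tags of Snhg11, a noncoding host gene of neurons, numbered 45 and 142 in knockout and wild type (log2 -1.60, -2.12 to -1.11), while its sense tags numbered 1652 and 1578. Those of Itsn1, an endocytic scaffold gene, numbered 92 and 50 (0.93, 0.42 to 1.46), with 177 and 161 sense tags. Both genes were chosen after their values were seen.

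Because short transcripts include most ribosomal messages, ratios were compared with the longest annotated transcript (GENCODE vM21) over 8313 features. Spearman's rho across features, which are not independent, was 0.01, and the shortest of 4 equal groups had a median ratio of 0.01. The median length in that group was 1449 bases. Ribosomal messages were not compared apart, so a part of length in their ratios was not tested.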
